A study of Mus musculus with 6 samples.

Results

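The circRNAs of the host genes Rnf169, Asph and Tlcd4 were examined in the mouse liver, and their main circles had the 3 highest mean levels of all circRNAs listed. They were taken as every circRNA entry listed under these gene names, which gave 19 entries (4 of Rnf169, 9 of Asph and 6 of Tlcd4) of the 7469 entries and 3 of the 3468 host genes listed. The genes were chosen by this level, so the high level itself is a description and was not tested. The liver RNA came from C57BL/6J mice at 12 weeks of age, of which 3 had been fed a high-fat diet (HFD) and 3 a low-fat diet (LFD), with 1 library per mouse. No gene was altered in either group, and the diets are the only labelled difference between them. Whole liver was used, so that fewer cells of a type and less RNA per cell cannot be told apart in any level given here. The paper's methods describe removal of ribosomal RNA and digestion of linear RNA with RNase R, whereas the sample labels name only the ribosomal removal.

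A circRNA arises when the 3′ end of an exon is spliced back to the 5′ end of the same or an earlier exon, which closes the RNA into a ring without free ends. Such rings resist exonucleases and can accumulate in cells that divide slowly, such as hepatocytes. They are recognised in sequencing by back-spliced reads, the reads that cross this junction. Rnf169 encodes a ubiquitin ligase that binds ubiquitinated chromatin at DNA double-strand breaks and limits the binding of Tp53bp1 there. Asph encodes aspartate beta-hydroxylase, an enzyme of the endoplasmic reticulum membrane that hydroxylates aspartate and asparagine in EGF-like domains, and its alternative transcripts encode junctin and junctate, which take part in calcium handling. Tlcd4, formerly Tmem56, encodes a membrane protein with a TLC domain, a fold that is also found in the ceramide synthases.

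A library held 5384 to 6590 back-spliced reads, and the 19 entries took 2.99% to 4.03% of them. SRPBM, the unit of level used here, expresses back-spliced reads relative to all reads the library mapped, and 1 read was worth 0.229 to 0.277 SRPBM. A level of 3 reads, 0.688 to 0.830 SRPBM, was taken as the smallest that can be told from none. This floor and all the intervals given for shares cover counting error only. By the read statistics in the paper, HFD 1 and LFD 3 had a higher share of bases above the quality score Q30 than the other 4 libraries. This class moved with some levels given here, and its part in them was not tested. Of 18 hepatocyte marker genes 14 had circRNA reads, 124 in all, with a summed level per library of 3.05 to 6.65 SRPBM on the HFD and 2.49 to 9.49 SRPBM on the LFD. Of the 9 hepatocyte genes tested between the diets 1 had an unadjusted p under 0.05, Cyp2e1, with 0, 1 and 0 reads on the HFD and 7, 0 and 6 on the LFD (edgeR unadjusted p = 0.0337, adjusted p = 0.799), where 2.34% of the 1834 host genes tested had such a p. Markers of Kupffer cells (3 of 8 genes, 11 reads, 1 tested), sinusoidal endothelial cells (3 of 8, 8 reads, 2 tested) and stellate cells (2 of 8, 2 reads) were near 0 with no gene at an unadjusted p under 0.05, and those of cholangiocytes (6 genes) and adipocytes (4 genes) had no reads.

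No main circle contained exon 1 of the reference transcript of its gene. This is a description only, as a first exon has no splice site at its 5′ end to be joined to. All 3 genes lie on the minus strand, and positions are those of the mouse genome build GRCm38, with exons of the GENCODE M21 annotation, in which Tlcd4 is listed as Tmem56. Rnf169 (ENSMUSG00000058761) spans chr7:99920254-99980448, Asph (ENSMUSG00000028207) chr4:9448069-9669344 and Tlcd4 (ENSMUSG00000028132) chr3:121201761-121283098. Exons between the junction positions of a circle were filled in from the annotation, because reads of the junction do not show which exons it holds. The exon content, lengths, GC content, reading frames and seed matches given here rest on this. The main circle of Rnf169, mmu_circ_0001605, spans chr7:99935162-99955540 and so contains exons 2 to 4 of the 6 exons of ENSMUST00000080817, all coding, with a spliced length of 340 nt. That of Asph, circRNA1006, spans chr4:9635901-9639347 and contains exons 2 and 3 of the 24 exons of ENSMUST00000078139, also coding, with 219 nt. That of Tlcd4, mmu_circ_0010409, spans chr3:121228310-121235764 and contains exons 4 to 8 of the 11 exons of ENSMUST00000135818, with 544 nt. It begins in the 5′ UTR and includes the annotated start codon, which lies in exon 5. The junctions of these circles are shown because the reads that were counted are those that cross them. Each line gives the last 15 bases of the circle in lower case and then its first 15 bases in capitals, 5′ to 3′ on the strand of the gene, from the GENCODE M21 transcripts.
Rnf169 mmu_circ_0001605: agcgttcctggcaggAGTTTATATTCAGAA
Asph circRNA1006: ccaaagttttattagAGGCAAAGCACGGAG
Tlcd4 mmu_circ_0010409: tactactttgtattgGCAATGGTCTATGAC

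Some minor circles shared a splice site with the main circle of their gene, but none of the 8 Asph minor circles did. In the junctions of 5 minor circles, in the same layout, equal capitals mark a shared first exon and equal lower-case letters a shared last exon. These sequences are built from whole exons. CircRNA1587 and circRNA4007 are listed as closing 1 bp inside their last exon, so that their last lower-case base lies outside the listed span. The Rnf169 circle circRNA4459 opens as the main circle does but closes at exon 3, and the Tlcd4 circle mmu_circ_0010410 opens as the main circle does but closes at exon 5. The Asph circles circRNA1587 and circRNA4007 share exon 4 as their first exon, and mmu_circ_0011864 starts further downstream, at exon 16.
Rnf169 circRNA4459: acaagtctggagcagAGTTTATATTCAGAA
Asph circRNA1587: aagacacaccaccagGCCTTAAAGAAAGAT
Asph circRNA4007: gcataatctcagaagGCCTTAAAGAAAGAT
Asph mmu_circ_0011864: acagagctagtgaagTGTGAAGATGACTTG
Tlcd4 mmu_circ_0010410: tgaatggaactcaagGCAATGGTCTATGAC

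**Figure D1:**
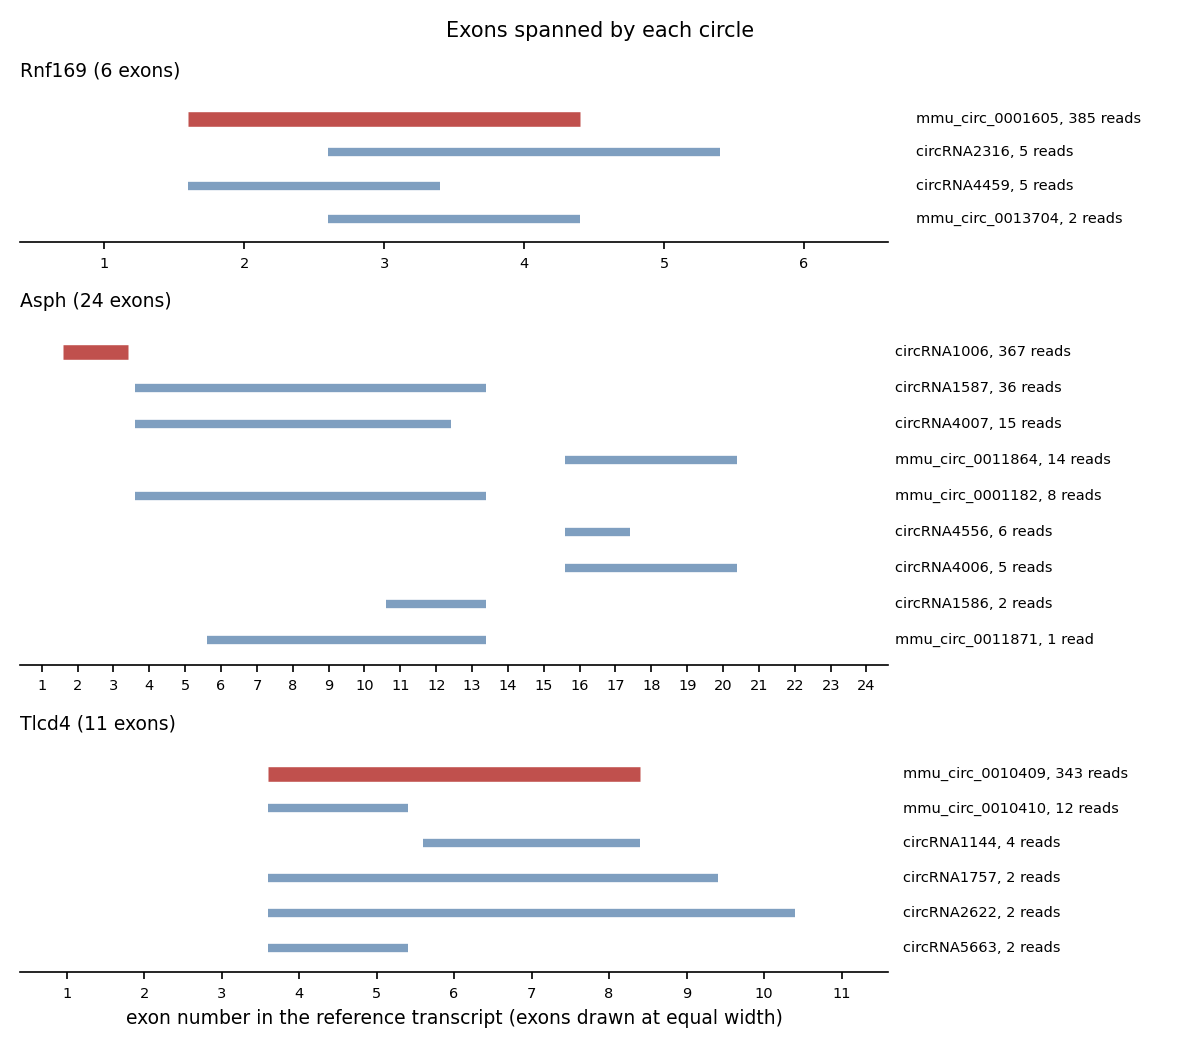
Exons spanned by each of the 19 circRNA entries of Rnf169, Asph and Tlcd4, with exons of the reference transcript numbered 5′ to 3′ on the horizontal axis and drawn at equal width. Thick red bars are the main circles (385, 367 and 343 reads over the 6 libraries) and thin blue bars the minor circles, none of which exceeds 36 reads. The Rnf169 and Tlcd4 minor circles overlap the main circle, whereas all 8 Asph minor circles lie downstream of it.

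For Rnf169, the main circle had 50, 68 and 82 back-spliced reads in HFD 1, 2 and 3 and 62, 70 and 53 in LFD 1, 2 and 3. In SRPBM these were 11.5, 17.3 and 22.0 on the HFD and 16.5, 19.4 and 14.0 on the LFD. The lowest values of each diet were those of HFD 1 and LFD 3, the libraries of the higher Q30 class. It was the most abundant circRNA of the library in HFD 2, HFD 3, LFD 1 and LFD 2, the 6th in HFD 1 and the 4th in LFD 3.

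For Asph, it had 64, 50 and 71 reads on the HFD and 39, 68 and 75 on the LFD. Its SRPBM was 14.7, 12.7 and 19.1 on the HFD and 10.4, 18.8 and 19.8 on the LFD. LFD 1 was the low library here, while LFD 3, low for Rnf169, was the highest. The circle was the most abundant of all in LFD 3 and lay between ranks 2 and 6 elsewhere.

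For Tlcd4, it had 73, 57 and 63 reads on the HFD and 45, 57 and 48 on the LFD. Its SRPBM was 16.7, 14.5 and 16.9 on the HFD and 12.0, 15.8 and 12.7 on the LFD. LFD 2 lay above HFD 2, so the diets overlapped, although the other LFD libraries lay below every HFD library. The circle was the most abundant in HFD 1 and lay between ranks 3 and 7 in the other libraries.

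**Figure D2:**
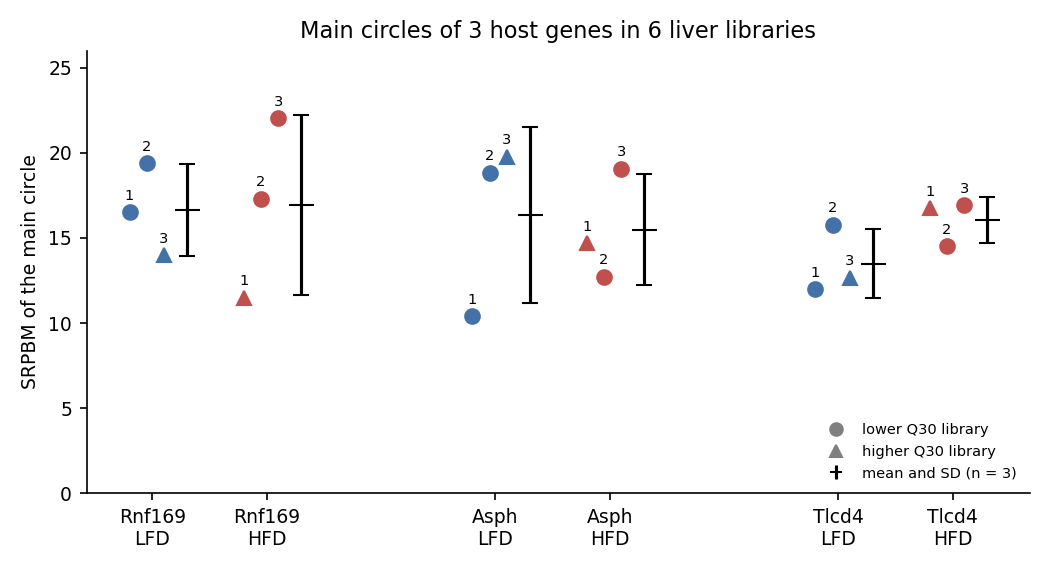
SRPBM of the main circles of Rnf169, Asph and Tlcd4 in each liver library (vertical axis, from 0), by host gene and diet. Each numbered point is 1 library, triangles mark the higher Q30 class (HFD 1 and LFD 3), and bars give the mean and SD of 3 libraries. The diets overlap for all 3 circles, and Tlcd4 has the narrowest range, 12.0 to 16.9 SRPBM.

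Over the 6 libraries the mean level was 16.8 ± 3.76 SRPBM for Rnf169, 15.9 ± 3.89 for Asph and 14.8 ± 2.09 for Tlcd4 (SD, n = 6). Neighbours in this order differed by less than the SD of either, so that the order of neighbours is not set by these data. Within a library the ratio of Rnf169 to Asph reads ranged from 0.707 to 1.59, and that of Asph to Tlcd4 from 0.867 to 1.56. Together the 3 circles made up 2.66% to 3.60% of the back-spliced reads of a library. The next circRNAs by mean level were those of Atxn2 (mmu_circ_0012070, 11.8 ± 5.93 SRPBM), Rmdn2 (mmu_circ_0007033, 11.7 ± 3.42) and Rad52 (mmu_circ_0001516, 11.0 ± 2.05). The Atxn2 circle lay below the range of the 3 main circles in HFD 1 and LFD 3, with 4.36 and 4.22 SRPBM, against 13.7 to 16.9 in the other 4 libraries.

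The Tlcd4 circle varied little more than its read number implies, and those of Rnf169 and Asph varied more than theirs. The coefficient of variation (CV, the SD as a percent of the mean) over the 6 libraries was 22.4% for Rnf169, 24.4% for Asph and 14.2% for Tlcd4. Counting error alone would give 12.5%, 12.8% and 13.3%, so that the Tlcd4 circle varied 1.07 times as much as its read number implies, and those of Rnf169 and Asph 1.79 and 1.91 times. For the 176 entries with reads in all 6 libraries the median CV was 46.7%, and for the 31 of these with at least 100 reads it was 32.4%, with a median of 1.79 times the counting error. Over all 176 the median was 1.25 times the counting error. Of the 31 entries with at least 100 reads, 7 had a lower CV than the Rnf169 circle, 9 a lower CV than the Asph circle and 0 a lower CV than the Tlcd4 circle. Relative to counting error, 15 of the 31 were lower than Rnf169, 17 lower than Asph and 2 lower than Tlcd4.

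**Figure D3:**
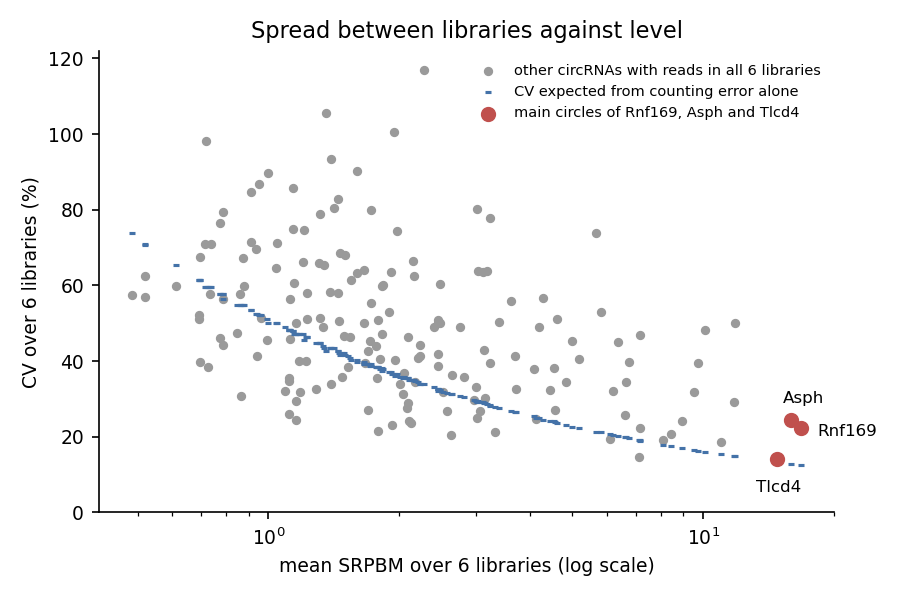
CV over the 6 libraries (vertical axis, percent) against mean SRPBM (horizontal axis, log scale) for the 176 circRNA entries with reads in all 6 libraries. Red points are the main circles and blue dashes the CV that counting error alone would give at each entry's reads. The Tlcd4 circle, at 14.2%, lies close to its dash at 13.3%, and the Rnf169 and Asph circles lie above theirs.

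Asph was the host gene with the most back-spliced reads (454), followed by Rnf169 (397) and Tlcd4 (365). The main circle held 97.0% of the reads of Rnf169 (385 of 397, 95% Wilson interval 94.8% to 98.3%) and 94.0% of those of Tlcd4 (343 of 365, 91.0% to 96.0%). It held 80.8% of the reads of Asph (367 of 454, 77.0% to 84.2%). The Asph interval lies below the others, but these intervals pool the reads of all libraries and leave out the spread between mice. In LFD 3, unlike in the other libraries, the Asph share (93.8%) lay above that of Tlcd4 (92.3%). Among the 44 host genes with at least 100 reads the median share of the main circle was 81.0%, with a range of 26.7% to 100%. The Asph share was therefore near this median, and 81.8% of these genes had a lower share than Rnf169 and 75.0% a lower share than Tlcd4.

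In single libraries, the main circle of Rnf169 held 100%, 94.4% and 100% of the gene's reads on the HFD and 98.4%, 94.6% and 94.6% on the LFD. For Tlcd4 the shares were 92.4%, 93.4% and 95.5% on the HFD and 93.8%, 96.6% and 92.3% on the LFD. The Asph share had the widest range, with 87.7%, 70.4% and 75.5% on the HFD and 75.0%, 81.0% and 93.8% on the LFD. Its highest value within each diet was in the higher Q30 class. Shares did not differ by diet beyond the spread between mice. The HFD and LFD means were 98.1% ± 3.21 and 95.9% ± 2.19 for Rnf169, 77.9% ± 8.86 and 83.2% ± 9.58 for Asph, and 93.8% ± 1.55 and 94.2% ± 2.19 for Tlcd4 (SD, n = 3 per diet). The two-sided exact permutation test gave p = 0.4, p = 0.6 and p = 0.7 in that order, where 3 mice against 3 allow no p below 0.1. In a library, 3 reads correspond to 3.19% to 6.25% of the reads of one of these genes, and larger changes in a share could also be missed at this depth. For Asph in HFD 2, the 95% Wilson interval of the share ran from 59.0% to 79.8%.

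The minor circles of Asph held 87 reads in 8 entries and came from parts of the gene downstream of the main circle. Exon 4 was the first exon of 3 of these entries with 13.0% of the gene's reads, and exon 16 that of 3 entries with 5.51%. The largest, circRNA1587 (chr4:9583813-9610938, from exon 4 to exon 13), had 7, 13 and 0 reads on the HFD and 6, 7 and 3 on the LFD. The entry mmu_circ_0001182 has the same first exon and a listed closing position 1 bp away. It had 8 reads in HFD 3, the library in which circRNA1587 had none, and no reads elsewhere. Summed, the pair had 7, 13 and 8 reads on the HFD and 6, 7 and 3 on the LFD, so that every library had reads of 1 of the 2 entries. CircRNA4007 (chr4:9594664-9610938, from exon 4 to exon 12) had 10 reads in HFD 3 and 5 in LFD 2. The circle mmu_circ_0011864 (chr4:9508627-9532065, exons 16 to 20) had 7 reads in HFD 2 and 3, 3 and 1 in the LFD libraries, and its partner 1 bp away, circRNA4006, had 5 reads in HFD 3. CircRNA4556 (chr4:9529886-9532065, exons 16 and 17) had 4, 1 and 1 reads on the LFD and none on the HFD. The remaining 2 Asph entries had 2 reads and 1 read in all.

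The minor circles of Rnf169 held 12 reads in 3 entries. CircRNA4459 (exons 2 and 3) had 1 and 4 reads in LFD 1 and 2, circRNA2316 (exons 3 to 5) had 2 reads in HFD 2 and 3 in LFD 3, and mmu_circ_0013704 (exons 3 and 4) had 2 reads in HFD 2. Back-splicing to exon 2 accounted for 98.2% of the gene's reads, mostly those of the main circle, and exon 3 was the first exon of 2 entries with 7 reads. The minor circles of Tlcd4 held 22 reads in 5 entries. The most frequent, mmu_circ_0010410 (chr3:121235043-121235764, exons 4 and 5), had 0, 2 and 3 reads on the HFD and 3, 0 and 4 on the LFD, and its partner 1 bp away, circRNA5663, had 2 reads in LFD 2. The other 3 had 2 to 4 reads, each in 1 library. Exon 4 was the first exon of 5 of the 6 Tlcd4 entries, with 98.9% of the reads, and exon 8 the last exon of 2 entries, with 95.1%. Both shares are mostly reads of the main circle.

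None of the 3 main circles had a partner 1 bp away, and both their listed positions lie on the edges of annotated exons. Among all 19 entries 6 had the lower genome position 1 bp inside an exon. On the minus strand this is the 3′ side, where the circle closes. In 3 pairs this position was 1 bp apart and the other was shared. Built from whole exons, the junctions of both entries of a pair are equal. No library had reads of both entries of a pair, over 6, 5 and 5 libraries with reads of either. Whether such pairs are separate circles was not tested. The isoform listed for circRNA1587 has 9 exons in this span and that for mmu_circ_0001182 has 10, although reads of the junction do not show which exons a circle holds.

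**Figure D4:**
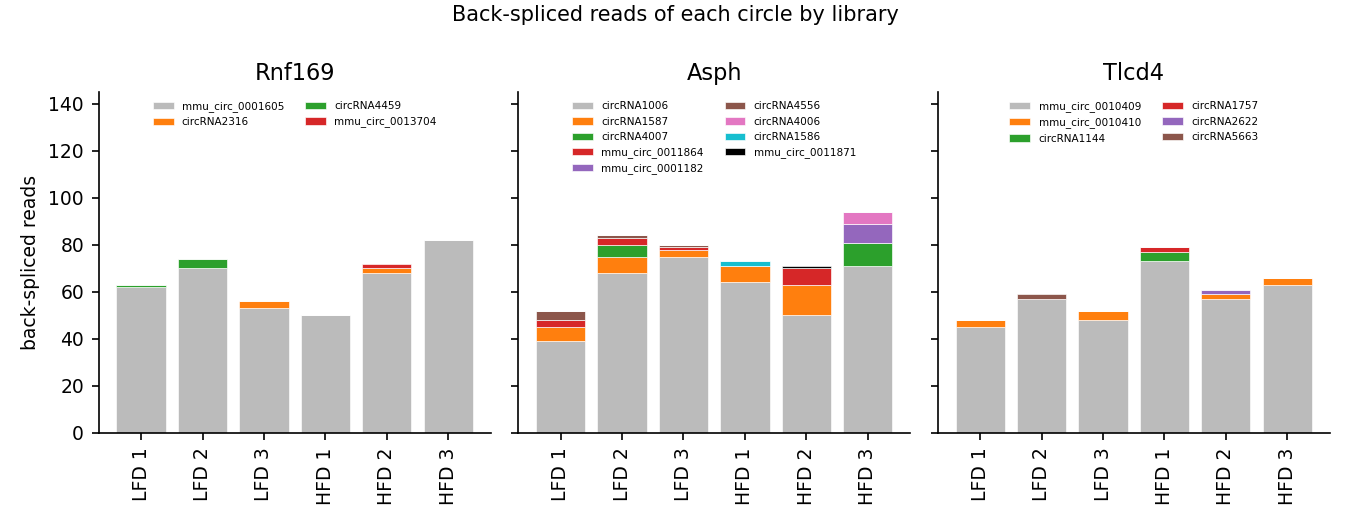
Back-spliced reads of each circRNA entry in each library (vertical axis, reads, from 0), stacked within the 3 host genes, with LFD and then HFD libraries on the horizontal axis. Grey is the main circle and colors are the minor circles. Asph has the most minor reads, between 5 in LFD 3 and 23 in HFD 3, against at most 4 for Rnf169 and 6 for Tlcd4.

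The diets were compared to ask whether the high-fat diet changed these circles. The circle of Rnf169 averaged 16.9 ± 5.29 SRPBM on the HFD and 16.6 ± 2.70 on the LFD (SD, n = 3 per diet, two-sided exact permutation test, p = 0.9). That of Asph averaged 15.5 ± 3.25 and 16.3 ± 5.17 (exact permutation test, p = 0.9). That of Tlcd4 averaged 16.1 ± 1.35 and 13.5 ± 2.02, 1.19-fold higher on the HFD (exact permutation test, p = 0.2). The Tlcd4 difference was larger than either SD, but the diets overlapped, and 3 mice against 3 cannot give a p below 0.1. Within the lower Q30 class (HFD 2 and 3, LFD 1 and 2), the Tlcd4 values were 14.5 and 16.9 on the HFD and 12.0 and 15.8 on the LFD. The higher class has 1 library per diet, with 16.7 in HFD 1 and 12.7 in LFD 3.

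In edgeR's quasi-likelihood test on the read counts of all 2041 entries with reads in at least 2 libraries, the log2 fold change of HFD over LFD was -0.04 ± 0.28 (SE) for the Rnf169 main circle, with a 95% interval of -0.59 to 0.50. It was -0.10 ± 0.29 for Asph, with an interval of -0.66 to 0.46, and 0.22 ± 0.30 for Tlcd4, with an interval of -0.37 to 0.80. The Benjamini-Hochberg adjusted p of edgeR was 0.987 for each of the 3, and the unadjusted p was 0.871, 0.716 and 0.466. These intervals leave out a doubling or a halving of each main circle within the assumptions of the fit, but not smaller changes. The median log2 fold change of all entries tested was -0.08. Of the 19 entries, 10 had reads in 2 or more libraries and were tested, and 0 of them passed the study's thresholds (unadjusted p under 0.05 with a log2 fold change of 1 or more in either direction). Of all entries tested 2.35% passed, 1.22% higher and 1.13% lower on the HFD. No entry of the 10 had an unadjusted p under 0.05 in edgeR, DESeq2 or limma, and after adjustment no entry of all 2041 had a p under 0.05 in these 3 tools.

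Only circRNA4556 of Asph had levels that did not overlap between the diets among the 19 entries, where 4.95% of all entries tested did not overlap. With 4, 1 and 1 reads against none it stayed near the floor of 3 reads in every library, and no fold is given. Its unadjusted p in edgeR was 0.0723 and its adjusted p 0.702. When the test was limited to the 1037 entries with reads in at least 3 libraries, its unadjusted p became 0.0294 and its adjusted p 0.846 in edgeR, the only setting of those run in which an entry of these genes passed the unadjusted thresholds. For the other minor circles tested the intervals were wide. That of circRNA1587 had a log2 fold change of 0.13 with an interval of -1.94 to 2.20, and with its partner summed the value was 0.62 (edgeR unadjusted p = 0.453).

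With all circles of a gene summed, the edgeR log2 fold change was -0.07 ± 0.30 (SE) for Rnf169, 0.00 ± 0.29 for Asph and 0.23 ± 0.31 for Tlcd4. The unadjusted p was 0.825, 0.99 and 0.459 in the same quasi-likelihood test of 1834 host genes. Of the 3 genes 0 passed the unadjusted thresholds, against 2.34% of the host genes tested, 1.25% higher and 1.09% lower on the HFD. No gene of the 3 had an unadjusted p under 0.05 in edgeR, DESeq2 or limma.

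**Figure D5:**
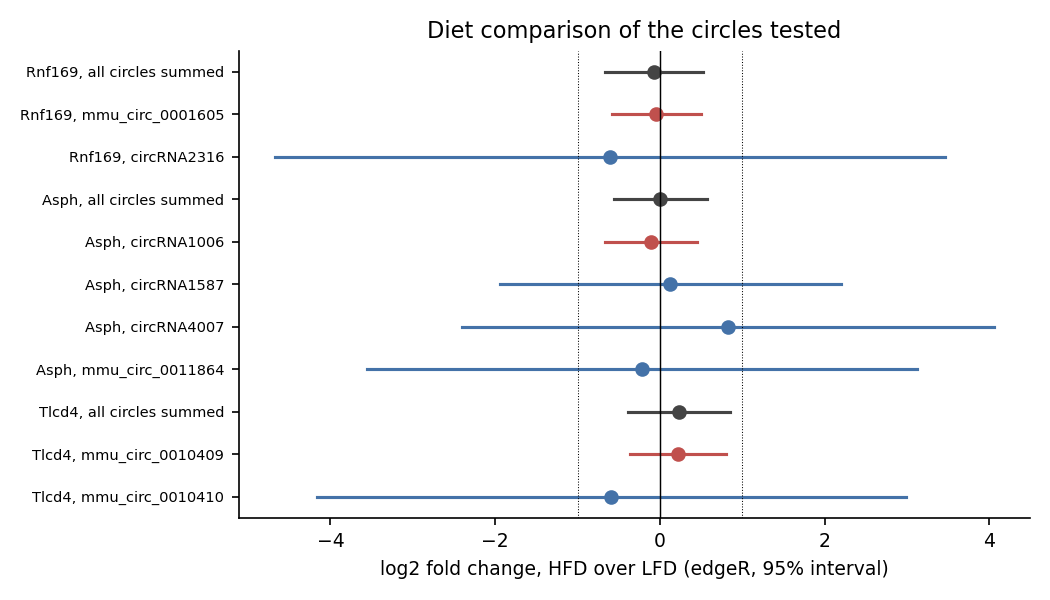
Log2 fold change of HFD over LFD (horizontal axis) from edgeR, with 95% intervals, for the summed circles of each gene (dark), the main circles (red) and the minor circles tested (blue). Minor circles without reads on the HFD are not drawn. The main circles and gene sums lie between the dotted lines at -1 and 1 with their whole intervals, whereas those of the minor circles extend beyond both lines.

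The 3 main circles differed in the sequence features that the choice did not use. Their spliced lengths of 340, 219 and 544 nt stand beside a median of 398 nt over the 6260 exonic entries whose exons could be placed, and 9.63% of these entries were shorter than the Asph circle. The GC content was 49.1% for Rnf169, 47.0% for Asph and 41.7% for Tlcd4, with a median of 47.8% over these entries. The introns listed on the upstream and downstream side were 24431 and 7969 bp for Rnf169, 29433 and 24962 bp for Asph, and 11237 and 16938 bp for Tlcd4. All 6 introns were longer than the medians over placed entries, 6953 bp upstream and 5248.5 bp downstream. Against entries with reads in all 6 libraries, whose medians were 15982 and 11892 bp, the upstream intron of Tlcd4 and the downstream intron of Rnf169 were shorter than the median.

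The length of a circle decides whether a reading frame that goes around it stays the same. The Asph circle has 219 nt, a multiple of 3, and the frame of the host protein met no stop codon over 3 rounds of the circle. In the frame of the Rnf169 protein, the circle of 340 nt has its first stop after 129 codons, past the junction. From the annotated start codon of Tlcd4, the circle of 544 nt reads 157 codons before a stop, also past the junction. Lengths and frames were taken over all annotated whole exons of a circle, also for entries listed 1 bp inside an exon. Inner exons were not seen in the junction reads. Both entries of a pair 1 bp apart are counted. Of all placed exonic entries 36.6% had a length that is a multiple of 3, and of the entries of these genes 9 of 9 for Asph, 1 of 4 for Rnf169 and 4 of 6 for Tlcd4. In Asph 16 of the 22 internal exons of the reference transcript have such a length. Translation was not measured here.

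Coding stretches that the main circles contain by annotation are printed because they hold the features named here. The 2 exons of the Asph circle are exon 2, given from the ATG in capitals (chr4:9639198-9639276, 79 nt), and exon 3 (chr4:9635901-9635969, 69 nt). This ATG is in the frame of the host protein and is the annotated start of 2 Asph transcripts. Exon 5 of Tlcd4 is given from its annotated start codon (chr3:121235043-121235236, 194 nt), with the start codon and a seed match in capitals. Exon 3 of Rnf169 (chr7:99942959-99943105, 147 nt) has a seed match in capitals.
Asph exon 2, from the ATG: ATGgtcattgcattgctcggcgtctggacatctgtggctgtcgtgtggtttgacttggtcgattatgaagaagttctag
Asph exon 3: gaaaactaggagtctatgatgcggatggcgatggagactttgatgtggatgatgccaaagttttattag
Tlcd4 exon 5, from the start codon: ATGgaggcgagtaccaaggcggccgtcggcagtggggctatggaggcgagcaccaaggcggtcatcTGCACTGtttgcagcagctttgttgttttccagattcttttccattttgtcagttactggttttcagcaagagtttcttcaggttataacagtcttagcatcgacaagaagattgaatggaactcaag
Rnf169 exon 3: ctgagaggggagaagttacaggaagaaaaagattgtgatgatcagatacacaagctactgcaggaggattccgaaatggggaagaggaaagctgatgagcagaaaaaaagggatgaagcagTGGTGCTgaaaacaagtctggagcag

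Because circRNAs are often discussed as binding partners of miRNAs, the main circles were searched for the 7 bases complementary to bases 2 to 8 (the seed) of 14 miRNAs found in liver, all of which were in the RefSeq table. Only the strand of the gene was searched, junction included, in circles built from all annotated exons between the junction positions. The Rnf169 circle had 1 match to miR-29a-3p (TGGTGCT, in exon 3), which 4.39% of the 933 placed circles within 10% of its length also had. The Tlcd4 circle had 1 match to miR-148a-3p (TGCACTG, in exon 5) and 1 to let-7a-5p (CTACCTC, in exon 7), found in 5.07% and 3.77% of the 690 circles of like length. The Asph circle had no match to the 14, which are a chosen list and not a survey of the miRNAs of liver. The mature sequences of the 3 miRNAs, from the same table, are given with the seed in capitals.
mmu-miR-29a-3p: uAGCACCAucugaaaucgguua
mmu-miR-148a-3p: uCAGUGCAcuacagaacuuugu
mmu-let-7a-5p: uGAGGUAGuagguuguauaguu

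Over the 1398 distinct seed matches of the 1679 mature miRNAs in the table, the Rnf169 circle held 41 and the Asph circle 21, beside medians of 39 and 25 for circles of like length. The Tlcd4 circle held 39, below the median of 62 and the lower quartile of 55 for its length, and it also had the lowest GC content of the 3. A match of letters says nothing of binding, which was not measured here.

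The levels of the 3 main circles did not follow one another closely from library to library. On the log2(SRPBM + 0.5) scale over the 6 libraries, Pearson's r was 0.20 between Rnf169 and Asph, 0.17 between Rnf169 and Tlcd4 and 0.44 between Asph and Tlcd4. These values rest on 6 points, share library depth and are given as a description only. Among 55 entries with reads in all 6 libraries and at least 60 reads, those most like Rnf169 were the circles of Rad52 (r = 0.87), Atxn2 (0.83) and Thrb (0.74). The most like Asph were those of Adk (0.88), Insr (0.85) and Hibadh (0.81), and the most like Tlcd4 were those of Aass (0.90), Rabgap1l (0.82) and Ghr (0.78). For each main circle these were picked as the highest of 55 values of r on 6 points, and they were not tested. For Rnf169 the likeness to the Atxn2 circle went with low values of both in HFD 1 and LFD 3.

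Genes related to the 3 host genes by pathway, cofactor, calcium handling or protein domain were looked up, and none had more than 36 circRNA reads. Of 18 genes of ubiquitin signaling at DNA double-strand breaks, the pathway of Rnf169, 8 had reads and 6 were tested, with 0 higher and 0 lower at the unadjusted thresholds in edgeR, where 2.34% of host genes passed. The largest were Usp3, a histone deubiquitinase, with 36 reads (3, 9 and 9 on the HFD and 2, 5 and 8 on the LFD), and Uimc1, which binds ubiquitin chains in the BRCA1-A complex, with 23. Of 22 hydroxylases that use 2-oxoglutarate, as Asph does, 3 had reads, and only Fto, an RNA demethylase, was tested, with 8 reads. Of 18 gene symbols of TLC domain proteins and relatives of Tlcd4, which include former symbols of the same genes, only the ceramide synthase gene Cers6 had reads (6). It did not pass. Of 19 genes of calcium handling in the endoplasmic reticulum 5 had reads and were tested, and 1 was higher on the HFD at the unadjusted thresholds. This was Itpr2, the main inositol trisphosphate receptor of hepatocytes, with 8, 15 and 2 reads on the HFD and 1, 1 and 3 on the LFD, in 16 entries (log2 fold change 2.09 ± 1.04 SE, unadjusted p = 0.0443 and adjusted p = 0.799 in edgeR). The diets overlapped for Itpr2, and the median log2 fold change of the 5 genes was 0.69, beside -0.09 over all host genes tested. The other calcium genes were Itpr1, Canx, Stim2 and Atp2a2, with 18, 18, 11 and 3 reads.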

How the data were processed

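Liver RNA of 3 HFD and 3 LFD mice was sequenced, and libraries were grouped by their labels. The authors trimmed reads with Cutadapt (1.9), used Bowtie2, TopHat2 (2.0.4) and TopHat-Fusion for mapping and CIRCExplorer2 and CIRI for calling, per the paper and the submitters' processing notes. The deposited values are, per circRNA and library, the raw count of back-spliced reads and SRPBM, a signal that the authors made relative to all mapped reads. The processing notes name the build mm9, but 87.8% of the exonic entries have both ends on exon edges of GENCODE M21 (GRCm38). A further 9.32% have the lower position 1 bp inside an exon and the other on an edge, so that GRCm38 positions were used.

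Here the main circle of a gene was its entry with most reads over the 6 libraries. Minor circles were singled out at 10 or more reads or in 3 or more libraries, and the others named were chosen after their values were seen. Counts were tested with edgeR (4.0.16, glmQLFit and glmQLFTest, TMM, library size set to all back-spliced reads), with adjustment over all entries or host genes tested, and single values by exact permutation (two-sided, 20 arrangements). The exact p-values rest on the spread of each value between these libraries. Those of edgeR rest on a variance estimate shared across the entries or host genes tested, not on the spread of a single circle alone. Alternatives were DESeq2 (1.42.0), limma (3.58.1) on log2(SRPBM + 0.5), other library sizes and filters, entries 1 bp apart summed, a replicate block, the lower Q30 class alone and each library left out. The circles, gene lists and miRNAs were chosen with earlier results of these data known. Of the other deposited columns, the positions, strand, exon number, circRNA class, isoform, flanking introns and gene name were used, and the gene descriptions and functional terms were not. Software was R 4.3.3, Python 3.11.15, SciPy 1.17.1, NumPy 2.4.6, pandas 2.3.3 and matplotlib 3.10.9.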

Additional observations from a re-analysis of the deposited data

How the results depend on the processing

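No main circle and no gene sum of Rnf169, Asph or Tlcd4 passed the thresholds under any alternative run. The number of entries called was 48, and 11 with DESeq2, 74 with limma, 17 in the lower Q30 class alone (1357 entries tested) and 20 to 48 with 1 library left out. The number of host genes called was 43, and 25 with DESeq2, 72 with limma and 26 to 60 with 1 library left out. With the replicate number as a block, 10 entries and 14 host genes were called. The numbers name no shared litter or batch, and the correlations of same-numbered libraries were -0.13, 0.35 and -0.01, so they were not taken as pairs. Small differences changed sign. For the log2 fold change of the main circle, Rnf169 became 0.0261 with library sizes from SRPBM and Tlcd4 -0.0029 in the lower Q30 class. For the gene sum, Rnf169 became 0.000595 in the lower Q30 class and Asph -0.0386 with DESeq2. The Rnf169 level difference was -0.0278 percentage points as a percent of back-spliced reads, the Asph difference 1.29 SRPBM in the lower Q30 class, and the Tlcd4 share difference 0.271 percentage points over entries with at least 3 reads. With 1 library left out, the SRPBM difference of HFD minus LFD ranged from -2.23 to 3.04 for Rnf169, -3.81 to 0.889 for Asph and 1.84 to 3.74 for Tlcd4. The share difference ranged from 1.34 to 4.12, -10.3 to -0.101 and -1.41 to 0.739 percentage points in that order. The log2 fold change of the main circle ranged from -0.28 to 0.11, -0.34 to 0.0117 and 0.10 to 0.29, and that of the gene sum from -0.22 to 0.11, -0.16 to 0.16 and 0.12 to 0.37. The causes of these changes were not tested. Median log2 fold changes over all entries lay between -0.17 and 0.15 over the settings. Depth limits the minor circles, of which the largest had 36 reads over the 6 libraries.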
